A study of Rattus norvegicus with 7 samples.

Results

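The genes described here encode the subunits of the mitochondrial oxidative phosphorylation machinery, with a few of its assembly factors, measured in the brain of rats bred for a high or a low preference for alcohol. A probe was included when its transcript accession belonged to a rat gene in RefSeq whose symbol starts with Nduf, Sdh, Uqcr, Cox4 to Cox8 or Atp5, or is Cyc1. This gave 43 probes for 40 genes, out of 7207 probes with a gene name for 6046 genes and 33849 transcript probes in all. Where a gene had several probes, the one with the highest mean signal stood for it. No measured difference entered this choice, and no gene was left out for low signal: all 40 were tested, and 32 of them were above background on all 7 arrays. The set held 8 subunits of complex I, 2 of complex II, 4 of complex III, 10 of complex IV, 12 of complex V and 4 assembly factors.

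Complexes I to IV pass electrons from NADH and succinate through ubiquinone and cytochrome c to oxygen and, except for complex II, pump protons across the inner mitochondrial membrane. Complex V, the ATP synthase, lets the protons flow back and makes ATP. Neurons depend on this route for most of the ATP that restores ion gradients after firing. The genes measured here lie in the nucleus, while some catalytic subunits are encoded by mitochondrial DNA.

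The rats were adult males of the alcohol-preferring (P) line or the alcohol non-preferring (NP) line. Both lines come from Wistar stock by selective breeding, the rats were doubly housed, and the series title calls them alcohol-naive. Each array held 1 rat: P 1 to P 4 (n = 4) and NP 2 to NP 4 (n = 3), after the authors dropped an NP array at quality control. The labels state neither the generation nor the families of the rats, and each line is a single bred population, so effects of selection and of drift cannot be told apart. RNA of the whole brain was amplified from an oligo(dT) primer with biotin as the label, for arrays read in 1 colour. Values are log2 signals after background correction and quantile normalization, and differences are P minus NP unless stated. In whole brain, fewer cells of a type and less RNA per cell cannot be told apart.

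The date in the scanner file headers differed between arrays, and what was done on it is not stated. NP 2, NP 3, P 1 and P 2 shared a date (date 1), NP 4 had its own (date 2), and P 3 and P 4 had another (date 3). Date and line therefore cross only on date 1, with 2 arrays of each line. The lines were compared over all 7 arrays, again with date as a block in the model, and within date 1 alone. A block fit and a fit within date 1 give the same difference for each gene and differ in the error. P 1 and P 2 were also set against P 3 and P 4, a contrast within the P line. These contrasts share P 1 and P 2, so their values are given side by side and are not independent. An array number in the files was 6 or 7 on NP arrays and 8 or 9 on P arrays. It cannot be told apart from the line.

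Arrays differed in overall brightness. Between 77.9% (P 4) and 85.9% (NP 4) of transcript probes were above background. The median background-subtracted intensity was lowest on P 2, at 69.5, and lay between 89.6 and 124 on the others. Between 36 and 40 of the 40 genes were above background on each array, and 6 genes had a missing value on an array. A spot set to missing counted as not above background. Brain markers were present: all 6 astrocyte, all 6 microglial and 5 of 6 oligodendrocyte markers were above background on all 7 arrays. Of 9 neuronal markers 6 had a probe and 4 of those were above background throughout, while Snap25 and Stmn2 were above background on 3 arrays each. Stmn2 was missing on the other arrays and read 10.95, 11.04 and 10.90 in NP 2, NP 4 and P 3, so it was not a dim probe. All 4 markers of skeletal and heart muscle were above background on every array, and none of the 3 liver markers was.

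RefSeq promoter windows (GRCr8, from 250 bases before to 50 bases after the gene start) were found for 35 of the 40 genes. Genes of this machinery are known targets of the factors NRF1 and NRF2, the second of which is an ETS-family protein. The letters GCATGCGC, from the NRF1 site, stood on either strand in 17.1% of these 35 windows and in 2.47% of all 33469 windows of the table (3.11% of the 21851 windows of protein-coding genes). CCGGAAG (an ETS site) stood in 28.6% against 8.75% (10.7% of protein-coding genes), and AAGATGGC (a YY1 site) in 17.1% against 3.17% (3.67%). No match to one of these motifs shared bases with a match to another. CCAAT was in 28.6% against 37.5% (38% of protein-coding genes) and TATAAA in 2.86% against 14.2% (13%). Median GC content was 59.3% in the members' windows, 51.7% in all windows and 55% in those of protein-coding genes. A match to these letters is a description and not a measured binding site. Of the 35 windows, 17 held GCATGCGC, CCGGAAG or AAGATGGC.

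Promoters of 4 genes that the results below return to are printed with these matches in capitals; the genes were chosen after their values were seen. Atp5me (chr14:1464610-1464909, plus strand) holds all 3 kinds of match. Uqcrh (chr5:134790833-134791132, minus strand) and Cox7a2 (chr8:89601100-89601399, minus strand) each hold 1 ETS match, read on the opposite strand as CTTCCGG. Cox7b (chrX:75148786-75149085, plus strand) holds none of them.
Atp5me: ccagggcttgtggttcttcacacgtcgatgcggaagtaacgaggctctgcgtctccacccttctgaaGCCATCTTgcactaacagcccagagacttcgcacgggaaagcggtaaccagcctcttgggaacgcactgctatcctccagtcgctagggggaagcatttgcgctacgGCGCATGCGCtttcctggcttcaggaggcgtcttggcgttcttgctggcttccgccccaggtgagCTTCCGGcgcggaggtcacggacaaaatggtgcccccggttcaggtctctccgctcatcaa
Uqcrh: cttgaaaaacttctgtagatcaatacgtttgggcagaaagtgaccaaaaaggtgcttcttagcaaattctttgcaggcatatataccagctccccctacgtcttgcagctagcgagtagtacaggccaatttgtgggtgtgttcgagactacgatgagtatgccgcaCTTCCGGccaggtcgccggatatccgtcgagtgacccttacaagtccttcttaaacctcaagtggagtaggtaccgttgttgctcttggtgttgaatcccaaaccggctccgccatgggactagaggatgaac
Cox7a2: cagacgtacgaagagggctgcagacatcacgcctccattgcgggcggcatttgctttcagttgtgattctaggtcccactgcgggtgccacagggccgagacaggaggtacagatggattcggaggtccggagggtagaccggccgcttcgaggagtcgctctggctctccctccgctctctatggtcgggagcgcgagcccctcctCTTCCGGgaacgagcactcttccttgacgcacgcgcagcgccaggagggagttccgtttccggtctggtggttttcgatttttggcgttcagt
Cox7b: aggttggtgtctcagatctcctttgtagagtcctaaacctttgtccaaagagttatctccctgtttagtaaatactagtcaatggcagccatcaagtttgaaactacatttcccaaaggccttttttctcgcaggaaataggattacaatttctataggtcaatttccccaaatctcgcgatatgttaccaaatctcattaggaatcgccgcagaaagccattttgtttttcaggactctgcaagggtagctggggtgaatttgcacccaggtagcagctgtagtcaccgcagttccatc
Of the 8 genes that were lower in P within date 1 (given by complex in the following paragraphs), 7 had a window, and 3 of these held an ETS match while none held GCATGCGC or AAGATGGC. Among the other 28 genes with a window, 7 held an ETS match, 6 held GCATGCGC and 6 held AAGATGGC.

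Over all 7 arrays no gene of the set differed between the lines at an adjusted p under 0.05 (limma, adjusted over all 29003 probes fitted). The background was 0.29% of all probes, 84 probes. At an unadjusted p under 0.05, 6 of the 40 genes (15%) passed, 4 lower and 2 higher in P, against 11.5% of all probes. The median difference was -0.04, with 24 genes (60%) lower and 16 higher in P, a lowest value of -0.57 (Cox6c) and a highest of 0.48 (Atp5pd). Of all probes 48.6% were lower in P, and their median was 0.01. Of 34 genes with a value on every array, 7 (20.6%) had P values that did not overlap the NP values, against 13.3% of all probes. Cox7a2, Cox6c, Cox6a2 and Atp5me lay lower in all 4 P rats, and Ndufs7, Sdhc and Atp5f1d lay higher. Of all probes 6.37% lay lower and 6.91% higher in this way.

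Within date 1 the picture was different. P 1 and P 2 were lower than NP 2 and NP 3 in 8 of the 40 genes (20%) and higher in none, at an adjusted p under 0.05. Over all probes 6.4% were called, 4.54% lower and 1.86% higher. The 8 genes were Ndufs5 and Ndufa5 of complex I, Uqcrh of complex III, Cox7a2, Cox6c and Cox7b of complex IV, Atp5pb of complex V, and Sdhaf2, an assembly factor. The median difference was -0.23, with 29 genes lower and 11 higher, where the median over all probes was 0.03. Both P values were below both NP values in 21 of 38 genes with all 4 values, against 27.2% of all probes, and above them in 7, against 31.7%; of all probes 58.9% lay apart in either direction with so few arrays. With date as a block 6 genes were called, all lower (15%). Of all probes 5.72% were called there, 4.07% lower and 1.65% higher. Ndufa5 and Sdhaf2 no longer passed.

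The count depended on array P 2. Without it only Uqcrh was still called within date 1. Without P 1, the genes Atp5f1c, Atp5pd, Uqcrc2 and Cox4i2 were newly called, the last of them higher in P. Without NP 2, Cox7a2 and Ndufa5 were no longer called and Atp5f1c was newly called. Without NP 3, Ndufa5 and Sdhaf2 were no longer called and Atp5f1c was newly called. Each of these fits leaves a single array in a line, so the number of genes passing is not read as a result. Atp5pb could not be fitted without P 1, P 2 or NP 3. P 1 and P 2 were also low against the other P rats: P 1 and P 2 against P 3 and P 4 gave 11 genes lower and 1 higher (Cox4i2), 30% of the set. Of all probes 13.9% were called in that contrast, 7.59% lower and 6.35% higher. The median difference there was -0.30, and without P 2 limma called no gene (12 at an unadjusted p under 0.05, against 19.7% of all probes). P 2 was also the array with the lowest median background-subtracted intensity, and its part in these values was not tested further. With plain background subtraction, or with the authors' own log2 values, limma's usual fit called 0 genes within date 1 and 0 between dates. The unadjusted p was under 0.05 for 9 and 13 genes with plain subtraction and for 10 and 14 with the authors' values. Of all probes 21.3% and 26.1% passed with plain subtraction, and 21.4% and 25.5% with the authors' values. The genes called otherwise had the same direction in each case. With a variance prior that follows intensity, both sets of values gave 8 genes within date 1 and 12 between dates. Over all probes, plain subtraction then called 1715 of 28862 within date 1 and 3753 of 28915 between dates. The authors' values called 1458 of 28862 and 3620 of 28914.

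**Figure D1:**
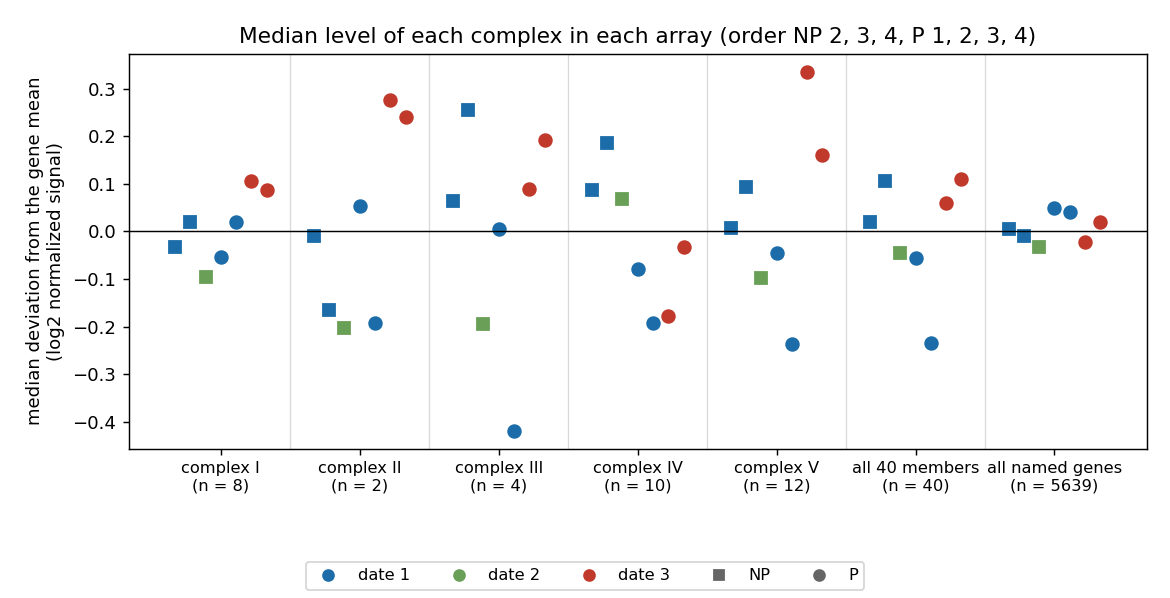
Median deviation of the genes of each complex on each array, in log2 units from each gene's mean, in the order NP 2 to NP 4 and P 1 to P 4, with squares for NP, circles for P and colours for the header date. The complex IV medians of all 4 P arrays lie between -0.19 and -0.03, below the NP arrays at 0.07 to 0.19, while P 2 is lowest for complex III at -0.42.

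Array by array, the median deviation of the 40 genes from their own means was 0.02 on NP 2, 0.11 on NP 3 and -0.05 on NP 4. It was -0.06 on P 1, -0.23 on P 2, 0.06 on P 3 and 0.11 on P 4. P 2 was the lowest, P 3 lay within the range of the NP arrays, and P 4 lay just above the highest of them. The genes also varied more among P rats than among NP rats. The median SD was 0.26 in P (n = 4) and 0.14 in NP (n = 3), and for all probes it was 0.19 and 0.14. The largest SD among P rats was 1.11, for Uqcrh.

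Complex I oxidizes NADH and starts the chain. Its 8 measured subunits had a median difference of 0.07 over all 7 arrays and 0.08 within date 1, near the all-probe medians of 0.01 and 0.03. Of the 8, 3 were lower over all arrays and 4 within date 1. Ndufs5 and Ndufa5, both accessory subunits, were lower in P within date 1. Ndufs5 read 9.80, 9.71 and 9.60 in NP 2, NP 3 and NP 4, and 9.14, 8.60, 9.76 and 9.49 in P 1 to P 4. P 1, P 2 and P 4 lay below every NP rat, and P 3 did not, so the lines overlapped. Its difference was -0.89 ± 0.18 (SE) within date 1 (limma adjusted p = 0.0288; 0.0292 with date as a block) and -0.46 ± 0.23 over all arrays (adjusted p = 0.466). Ndufa5 read 11.46, 11.39 and 11.57 in the NP rats and 10.95, 10.82, 12.00 and 11.17 in P 1 to P 4. Here 3 P rats lay below all NP rats and P 3 lay above them. Its difference within date 1 was -0.54 ± 0.13 (limma adjusted p = 0.0416), and with the block the adjusted p was 0.161.

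Ndufs7, a core subunit with an iron-sulfur cluster next to the ubiquinone site, showed the opposite direction. It read 11.24, 11.24 and 11.30 in the NP rats and 11.34, 11.56, 11.49 and 11.50 in P 1 to P 4. All 4 P rats lay above all NP rats, by 0.21 ± 0.11 (limma adjusted p = 0.466). Ndufa10l1, named as a copy of the accessory subunit Ndufa10, read 10.14, 10.42 and 10.32 in NP and 10.40, 10.62 and 10.92 in P 1, P 2 and P 4, with P 3 missing. P 1 lay just below NP 3, so the lines overlapped, and the difference was 0.36 ± 0.16 (limma adjusted p = 0.435). A second Ndufa10l1 probe differed by -0.11 ± 0.23 over all arrays and by -0.55 within date 1, where the brighter probe differed by 0.23. The probes of this gene thus had opposite signs, neither of them called. Of the subunits of the NADH-binding end, Ndufv1 differed by -0.10, Ndufv3 by 0.11 and Ndufv2 by 0.27 over all arrays. Ndufv2, an iron-sulfur subunit, read 7.50, 7.70 and 7.22 in NP, 7.53 and 7.10 in P 1 and P 2, and 8.20 and 8.15 in P 3 and P 4. The date-3 P rats stood above all other rats, and the date difference among P rats was -0.86 ± 0.17 (limma adjusted p = 0.0114). Ndufs5 was the other complex I gene called in that contrast, at -0.76 ± 0.19 (adjusted p = 0.0302).

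Complex II, succinate dehydrogenase, links the citric acid cycle to the chain. Only its membrane anchors Sdhc and Sdhd were measured, and their median difference was 0.22 over all arrays and 0.02 within date 1. Sdhc read 10.60, 10.37 and 10.22 in NP and 10.88, 10.78, 10.72 and 10.77 in P 1 to P 4. Every P rat lay above every NP rat, by 0.39 ± 0.12 over all arrays (limma adjusted p = 0.33) and by 0.34 ± 0.14 within date 1 (adjusted p = 0.148). Sdhd read 9.40, 9.31 and 9.39 in NP and 9.24, 8.86, 9.85 and 9.73 in P. Its P rats split by date around the narrow NP values. The difference was 0.05 ± 0.22 over all arrays (limma adjusted p = 0.94) and -0.31 within date 1 (adjusted p = 0.231). P 1 and P 2 against P 3 and P 4 differed by -0.74 ± 0.16 (adjusted p = 0.0179).

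Complex III hands electrons from ubiquinol to cytochrome c. The median of its 4 subunits was -0.03 over all arrays and -0.39 within date 1. Uqcrh, the acidic hinge protein that helps cytochrome c1 meet cytochrome c, had the largest date-1 difference of the 40 genes. It read 8.88, 9.10 and 8.49 in NP 2, NP 3 and NP 4, and 8.01, 7.70, 9.88 and 9.63 in P 1 to P 4. The date-1 P rats lay below all NP rats and the date-3 P rats above all of them. Within date 1 it was lower in P by 2.19-fold, a log2 difference of -1.13 ± 0.15 (limma adjusted p = 0.00913; 0.00927 with the block). It remained past the threshold with any of the 4 date-1 arrays left out. Between the P dates its difference was larger, at -1.90 ± 0.16, which is 3.73-fold lower on date 1 (adjusted p = 0.00387). Over all arrays the means were 8.81 ± 1.11 (SD, n = 4) in P and 8.82 ± 0.31 (n = 3) in NP, a difference of -0.02 ± 0.48 (adjusted p = 0.992).

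The other complex III subunits were not called in any of these contrasts. Uqcrc2, a core protein of the matrix side, read 10.81, 10.84 and 10.56 in NP and 10.59, 9.87, 10.87 and 10.80 in P. P 2 was the low value, and the difference was -0.21 ± 0.22 (limma adjusted p = 0.719) and -0.60 within date 1 (adjusted p = 0.109). Its partner Uqcrc1 read 12.56, 12.28 and 12.37 in NP and 12.65, 12.62, 12.31 and 12.70 in P, a difference of 0.17 ± 0.14 (adjusted p = 0.631). Uqcrfs1, the Rieske iron-sulfur protein, read 10.54, 10.84 and 10.27 in NP and 10.57, 10.44, 10.45 and 10.57 in P, a difference of -0.04 ± 0.14 (adjusted p = 0.923). Both had overlapping lines with no split of the P rats by date.

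**Figure D2:**
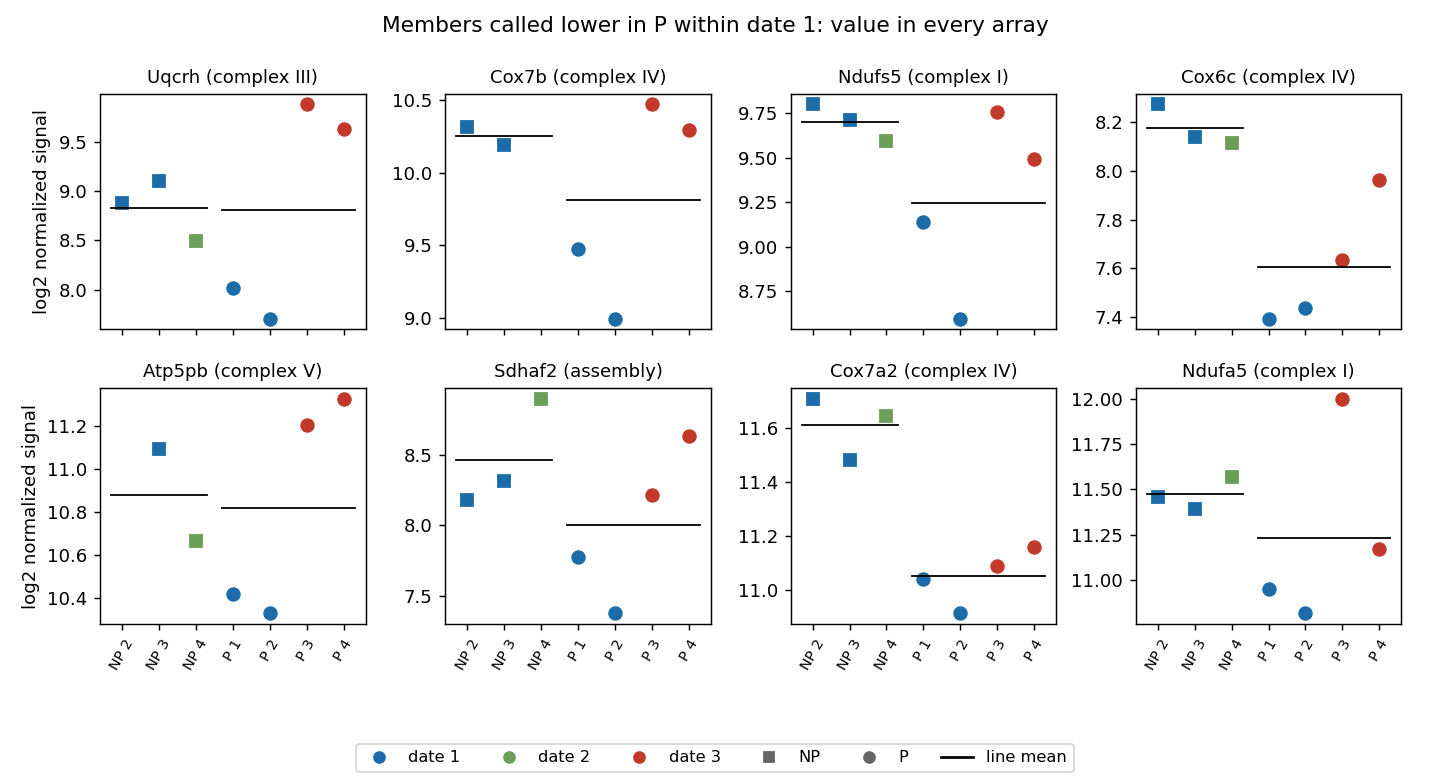
Log2 signal on each array for the 8 genes lower in P within date 1, with squares for NP, circles for P, colours for the header date and a bar at each line's mean. Uqcrh and Cox7b show P 1 and P 2 below P 3 and P 4, while the P values of Cox7a2 lie between 10.92 and 11.16, all below the NP values of 11.48 to 11.71.

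Complex IV, cytochrome c oxidase, reduces oxygen. Of its 10 genes, 7 were lower in P over all arrays (median -0.10) and 8 within date 1 (median -0.25). By array, the median deviation of the 10 was 0.09, 0.19 and 0.07 in NP 2, NP 3 and NP 4, and -0.08, -0.19, -0.18 and -0.03 in P 1 to P 4. All P arrays thus lay below all NP arrays. Cox7a2, the broadly expressed isoform of the small subunit VIIa, read 11.71, 11.48 and 11.64 in NP and 11.04, 10.92, 11.09 and 11.16 in P. All P rats lay below all NP rats whatever the date, with means of 11.05 ± 0.10 (SD, n = 4) in P and 11.61 ± 0.12 (n = 3) in NP. The difference was -0.56 ± 0.12 over all arrays, with a limma adjusted p of 0.134. It was -0.62 ± 0.14 within date 1 (adjusted p = 0.0359; 0.0337 with the block), and -0.15 between the P rats of dates 1 and 3 (adjusted p = 0.519). With date as a random block it was -0.59 (adjusted p = 0.0474), the only gene of the set called there. The date-1 adjusted p was 0.125 without P 2 and 0.115 without NP 2.

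Cox6c, another small nuclear subunit, read 8.27, 8.14 and 8.11 in NP and 7.39, 7.44, 7.64 and 7.96 in P. The lines did not overlap, and the difference was -0.57 ± 0.15 over all arrays (limma adjusted p = 0.27). Within date 1 it was -0.79 ± 0.13 (adjusted p = 0.0164; 0.0227 with the block), and between the P dates -0.38 (adjusted p = 0.127). Cox7b, a small subunit too, was low in P 1 and P 2 as Uqcrh was, but its P 4 value did not lie above the NP values. It read 10.31 and 10.19 in NP 2 and NP 3, with NP 4 missing, and 9.48, 9.00, 10.47 and 10.30 in P 1 to P 4. P 1 and P 2 lay below the other rats, with differences of -1.02 ± 0.17 within date 1 (limma adjusted p = 0.0178; 0.0168 with the block) and -1.15 ± 0.18 against P 3 and P 4 (adjusted p = 0.0063). Over all arrays the difference was -0.44 ± 0.36 (adjusted p = 0.64).

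Of 8 tissue-restricted isoforms of complex IV, 4 had a probe. Cox6a2, the heart and muscle isoform of subunit VIa, read 7.54, 7.79 and 7.76 in NP and 7.42, 7.24, 7.35 and 7.25 in P. The lines did not overlap, with a difference of -0.39 ± 0.12 (limma adjusted p = 0.313). Beside it, the 4 muscle markers differed by -0.24 (Acta1), -0.06 (Tnnt2), 0.05 (Ckm) and 0.08 (Myh7), none of them called. Within date 1 Acta1 differed by -0.29 ± 0.29 (SE), with its highest value, 11.13, in NP 3. Tnnt2 differed by -0.03 ± 0.13 there, Ckm by -0.06 ± 0.12 and Myh7 by -0.01 ± 0.19, each within its SE of no difference. Their part in the Cox6a2 value was not tested. Cox4i2, the isoform of subunit IV known from lung and from low oxygen, was the 1 gene called higher in P 1 and P 2 than in P 3 and P 4. It read 9.46, 9.35 and 9.53 in NP, 9.62 and 10.00 in P 1 and P 2, and 9.31 and 8.98 in P 3 and P 4, a date difference of 0.67 ± 0.18 (adjusted p = 0.0353). Its difference by line was 0.03. Cox8b, the muscle isoform of subunit VIII, differed by -0.11. Cox8c, known from testis, differed by -0.04 and was above background on 1 of 4 P and 2 of 3 NP arrays. The common subunits Cox4i1, Cox5a and Cox5b differed by 0.08, 0.04 and -0.09.

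Complex V makes ATP. Its 12 genes had a median of -0.03 over all arrays and -0.23 within date 1, with 7 and 10 of them lower in P. Between the P dates the median was -0.47, and 5 of 12 genes were called lower in the date-1 rats. These were Atp5f1c, Atp5f1e, Atp5pb, Atp5po and Atp5pd. Atp5pb, the b subunit of the stalk that holds the catalytic head still, read 11.09 and 10.67 in NP 3 and NP 4, with NP 2 missing. It read 10.42, 10.33, 11.20 and 11.32 in P 1 to P 4. Within date 1 it was lower in P, with a difference of -0.72 ± 0.16 (limma adjusted p = 0.0418; 0.0399 with the block), a value that rests on NP 3 alone as the NP rat. The P dates differed by -0.89 ± 0.14 (adjusted p = 0.00647), and over all arrays the difference was -0.06 ± 0.29 (adjusted p = 0.949).

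Atp5f1c, the gamma subunit that turns inside the head, read 9.69, 9.80 and 9.61 in NP and 9.26, 8.42, 10.49 and 9.73 in P. P 2 was lowest and P 3 highest of all rats. The date difference among P rats was -1.27 ± 0.29 (limma adjusted p = 0.0205), and within date 1 the line difference was -0.91 (adjusted p = 0.0519). Atp5f1e, the epsilon subunit of the same rotor, read 9.30, 9.35 and 9.10 in NP and 9.32, 9.20, 10.00 and 9.73 in P. P 3 and P 4 lay above every other rat, with a date difference of -0.60 ± 0.15 (adjusted p = 0.0288) and a line difference of 0.32 ± 0.19 (adjusted p = 0.522). Atp5po, the OSCP subunit at the top of the stalk, differed by -0.65 ± 0.16 between the P dates (adjusted p = 0.0259). Atp5pd, the d subunit of the stalk, differed by -0.89 ± 0.23 (adjusted p = 0.0369), with P 4 as the only date-3 value. Its NP 4 value of 8.77 lay far below those of NP 2 and NP 3, 10.77 and 10.94.

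By line, Atp5me and Atp5f1d were the complex V genes whose groups did not overlap. Atp5me, the e subunit of the membrane part, read 8.40, 8.64 and 8.31 in NP and 8.17, 8.28, 8.09 and 7.76 in P. All P rats were lower, with a difference of -0.37 ± 0.15 (limma adjusted p = 0.395). Atp5f1d, the delta subunit of the rotor stalk, read 11.05, 11.15 and 11.05 in NP and 11.47, 11.25, 11.26 and 11.48 in P. All P rats were higher, by 0.28 ± 0.12 (adjusted p = 0.412). The catalytic beta subunit Atp5f1b varied little, between 11.77 and 11.80 in the 4 P rats, and differed by 0.10 ± 0.12, with a second probe at 0.24 ± 0.19. The alpha subunit Atp5f1a differed by 0.26, Atp5pf of the stalk by -0.19, and Atp5mc1 and Atp5mc2 of the proton-carrying ring by -0.06 and -0.01.

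The 4 assembly factors were all lower over all arrays (median -0.16), and 3 were lower within date 1 (median -0.37), and 1 of them was called there. Sdhaf2, which helps attach the flavin to complex II, read 8.18, 8.31 and 8.89 in NP and 7.78, 7.38, 8.21 and 8.63 in P. P 1 and P 2 lay below all NP rats and P 3 and P 4 among them. The difference was -0.67 ± 0.16 within date 1 (limma adjusted p = 0.0416; 0.0584 with the block), -0.84 ± 0.19 between the P dates (adjusted p = 0.0188) and -0.46 ± 0.28 over all arrays (adjusted p = 0.524). The complex I assembly factors Ndufaf7, Ndufaf3 and Ndufaf4 differed by -0.20, -0.12 and -0.01, and Ndufaf4 was above background on 4 of the 7 arrays.

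**Figure D3:**
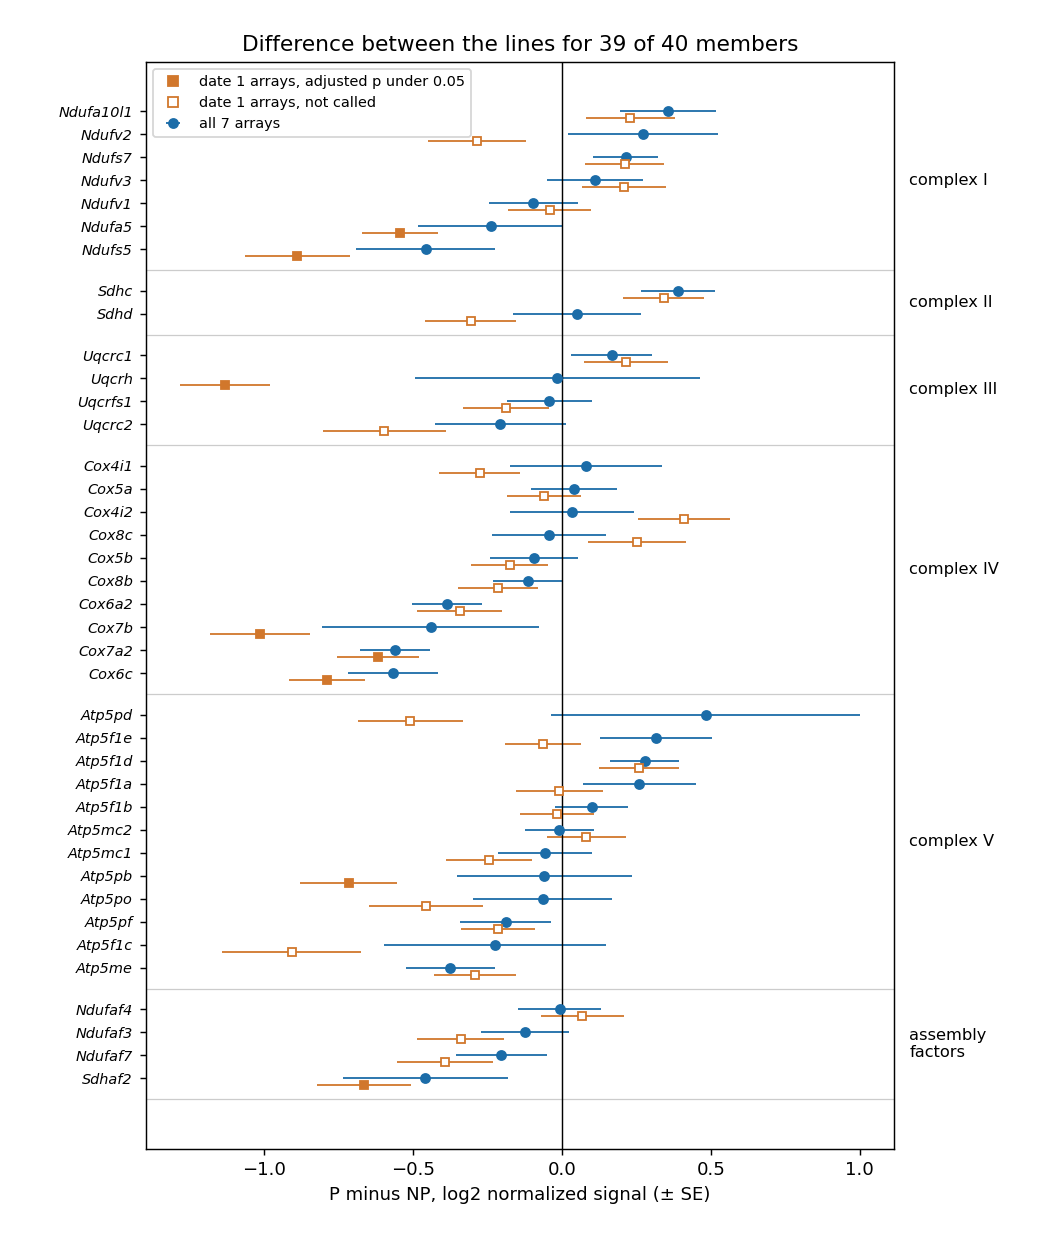
Difference P minus NP (log2, ± SE) of 39 of the 40 genes over all 7 arrays and within date 1, ordered by complex, with filled squares for an adjusted p under 0.05 within date 1. Over all arrays the values lie between -0.57 and 0.48, and within date 1 the lowest is Uqcrh at -1.13.

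Small subunits have close copies in the genome. The RefSeq table lists 50 pseudogene entries named after 23 of the 40 genes, among them 3 for Cox6c, 3 for Cox7b, 3 for Atp5pb, 4 for Ndufa5, 2 for Ndufs5 and 1 for Cox7a2. Whether the probes also bind transcripts of these copies was not tested, since probe sequences were not used here.

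**Figure D4:**
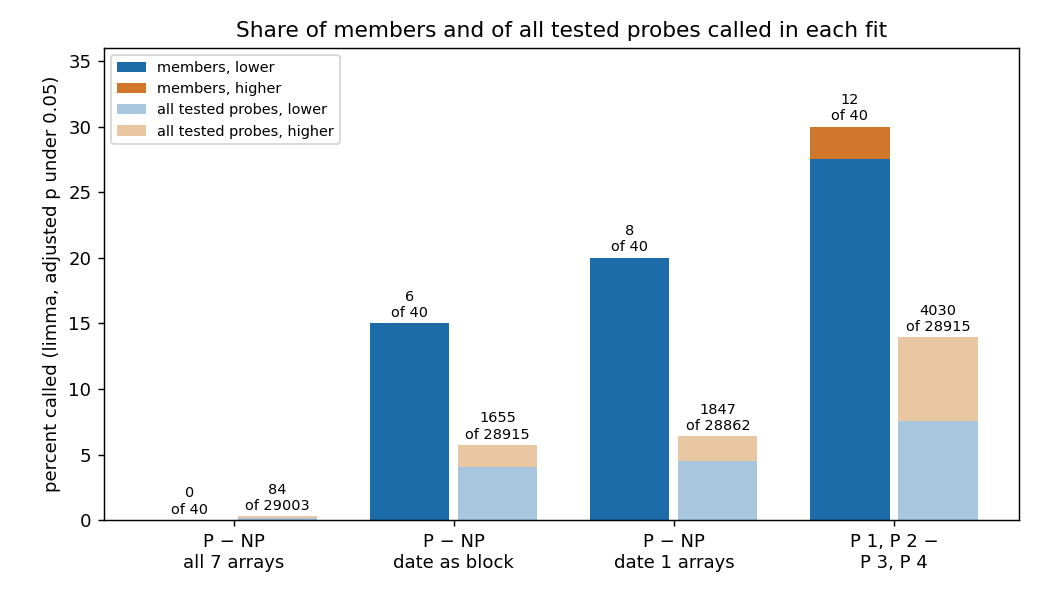
Percent of the 40 genes and of all fitted probes called by limma (adjusted p under 0.05) in each contrast, lower and higher apart. In the set 20% were called lower within date 1, against 4.54% of probes, and 0% over all 7 arrays, against 0.155%.

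Other mitochondrial gene lists were measured on the same arrays. Of 11 electron carriers and other inputs to the chain 7 had a probe, and none was called by line over all arrays (median -0.02). Cycs, cytochrome c itself, differed by -0.42 ± 0.24 over all arrays and by -0.73 within date 1 (limma adjusted p = 0.0484; 0.0682 with the block). Of 13 nuclear regulators of the chain 6 had a probe, with none called over all arrays and 1 lower within date 1. This was Mterf1, a factor that binds mitochondrial DNA, at -0.75 (limma adjusted p = 0.0236; 0.022 with the block). Tfam, which packages mitochondrial DNA, differed by -0.61 there (adjusted p = 0.0632). Of 15 mitochondrial carriers and energy transfer genes 12 had a probe, with 1 lower within date 1: Slc25a4, the ATP/ADP carrier, at -0.63 (adjusted p = 0.041), with a difference of -0.08 over all arrays. Of 17 genes of the citric acid cycle and pyruvate dehydrogenase 12 had a probe, and none was called by line in either fit (medians -0.03 and -0.28). The smallest p of that list over all arrays was that of citrate synthase (Cs), higher by 0.37 in P (adjusted p = 0.319). Of 24 assembly factors outside the set 4 had a probe and none was called, the smallest p being that of Ecsit at -0.25 (adjusted p = 0.436).

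Markers of cell types were read beside these values. Within date 1, 1 of 5 neuronal markers tested was called lower in P, Nefm, a neurofilament subunit, at -0.81 (limma adjusted p = 0.0298). It differed by -1.21 between the P dates (adjusted p = 0.00462). The summed signal of the 5 neuronal markers with a value on every array ran from 13815 to 14596 in P 1 and P 2, from 14864 to 16371 in P 3 and P 4 and from 12051 to 15002 in NP. The lowest NP sum was that of NP 4, of date 2. Within date 1, P 1 and P 2 both lay below NP 2 and NP 3 in this sum, which includes Nefm. By sign, 3 of the 5 markers were lower and 2 higher in P there. Gap43 differed by -0.19, Nefl by -0.04, Snap25 by 0.06 and Uchl1 by 0.14. Of 6 microglial markers 1 was called lower, Aif1, at -1.23 (limma adjusted p = 0.0141). By sign, 2 of the 6 were lower and 4 higher in P within date 1. C1qa differed by -0.16, Itgam by 0.29, Csf1r by 0.18, C1qb by 0.04 and Cx3cr1 by 0.01. The summed microglial signal ran from 4583 to 4674 in P 1 and P 2, from 4599 to 4717 in P 3 and P 4 and from 4079 to 4948 in NP. Here too NP 4 was the lowest NP array, and P 1 and P 2 both lay below NP 2 and NP 3. This sum includes Aif1, while most of the other markers were higher in P within date 1, so it does not describe the markers as a group. No astrocyte, oligodendrocyte, endothelial, choroid plexus, erythroid, muscle or liver marker was called by line in either fit. The part of cell composition in the values of the 40 genes was not tested.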

How the data were processed

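Per the labels, biotin-labelled RNA of 7 rats was hybridized to 1-colour arrays, 1 rat each. The deposited scanner tables give, per the file headers, spot mean and local background median intensity, subtracted and scaled intensity, and a quality flag. The authors also deposited log2 values, whose method no label states; they served as an alternative. Scanner software and genome build: not given in the sources used here. Replicates are separate rats, and groups and numbers come from the sample titles.

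With limma 3.58.1 in R 4.3.3, intensities were corrected by normexp (offset 50), control spots were left out, masked, irregular or contaminated spots were set to missing, and transcript probes were quantile normalized. Probes above background on at least 3 of 7 arrays were kept (29008), and those without residual degrees of freedom were left out. Lines were fitted with lmFit and eBayes over all probes, with Benjamini-Hochberg adjustment; a call is an adjusted p under 0.05. Further fits held header date as a fixed or random block, only date 1, or the P rats by date. The fits were tested on simulated data. RefSeq names came through unversioned accessions.

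Members, lists and promoter motifs were chosen with earlier results of these data known. Genes given with every array value were those called over all arrays, with the date block or within date 1, and in each complex the 3 with the smallest p over all arrays. Ndufv2, Cox4i2, Atp5f1c and Atp5pd were given in this way after their values were seen, as were the genes of the contrast between P dates. Alternatives were the background correction, scaling, filter, variance prior, array weights, blocks, the mean over probes and leaving out arrays. The values of 1 gene of the set are not reported here by name. Replicate numbers do not pair the rats. The number of arrays limits precision.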

Additional observations from a re-analysis of the deposited data

Results flagged for a closer look

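Ndufaf4, a complex I assembly factor, was set apart by a P rat far from the others. It read 5.95 in P 3 and between 6.33 and 6.39 in the other 3 P rats, a gap of 0.861 of the group's range. The probe was above background on 4 of the 7 arrays. Chance alone sets apart about 1 group in 20, and this was 1 of 44 sets of values looked at.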

How the results depend on the processing

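Over all 7 arrays no gene was called with any array left out, or under any background correction, scaling, filter, prior or weight tried. At an unadjusted p under 0.05 these fits held 4 to 9 genes, against 6.22% to 16.5% of all probes. By construction fits that treat date differ. With date as a block 6 genes were called, beside 1655 of 28915 probes. It was 8 genes within date 1, beside 1847 of 28862 probes, and 8 without P 3 and P 4, beside 3310 of 28921. With date as a random block it was 1 gene, where 19.9% of all probes had an unadjusted p under 0.05. Replicate numbers are only numbers (correlations of same-numbered rats 0.095, 0.06 and 0.02). The replicate block called 0 genes of the set in limma and 102 probes. At an unadjusted p under 0.05 it held 8 genes, against 8.87% of all probes. Its medians were -0.0039 for complex I and 0.17 for complex V. Within date 1 the 8 genes called became 5 without the local background, 3 with median scaling and 0 with plain subtraction or the authors' values; leaving out an array gave 1 to 11. Between P dates the 12 became 0 with either of the last, and 0 to 14. With every array kept, the 12 rose to 15 with median scaling, beside 5574 of 28915 probes, and to 17 with 75th percentile scaling. Scaling by the 75th percentile put the median of all probes at 0.24 between P dates, against 0.03 in the main fit. It gave 2101 lower among 9366 called, against 2194 of 4030. The median of all 40 genes was -0.23 with the date block or within date 1; likewise -0.37 for assembly factors, 0.017 for complex II, -0.39 for III and -0.25 for IV. Complex IV was -0.36 with plain subtraction and -0.34 with the authors' values. Without P 1 and P 2 complex V was 0.27, and 13 genes did not overlap (13 without P 3, 21 without P 3 and P 4). Leaving out an array gave medians of -0.09 to 0.01 for all, -0.24 to -0.07 for assembly factors, -0.0039 to 0.085 for I, 0.16 to 0.32 for II, -0.18 to 0.10 for III, -0.17 to -0.11 for IV and -0.08 to 0.10 for V, and 7 to 13 genes without overlap. The share of all probes without overlap is not given for these smaller sets of arrays. It was 13.3% over all 7 arrays and 58.9% within date 1, so the counts without overlap are not a result about the set. No cause of these shifts was tested.

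Signs turned, with none of the values called. Uqcrh became 0.034 with median and 0.011 with 75th percentile scaling, 0.25 with the replicate block and 0.93 without P 1 and P 2, and ran from -0.37 to 0.35 with an array left out. Uqcrfs1 became 0.0062 with median scaling and ran from -0.18 to 0.10. Sdhd became -0.31 with the date block and within date 1, -0.12 with the random block and -0.32 without P 3 and P 4 (-0.093 to 0.24). Atp5f1e became -0.063 with the date block and within date 1. Atp5pb became 0.39 with the replicate block and without P 1 and P 2 (-0.27 to 0.15), where Ndufa5 was 0.11, Uqcrc2 0.10 and Cox7b 0.13. Uqcrc2 ran from -0.32 to 0.013.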
